A study of Mus musculus with 24 samples.

Results

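The genes described here are 10 chaperones and folding enzymes of the endoplasmic reticulum (ER), the compartment in which secreted and membrane proteins fold: Sdf2l1, Hspa5, Hsp90b1, Pdia4, Pdia6, Creld2, Manf, Dnajb11, Hyou1 and Calr. They are 10 of the 15232 genes in the deposited expression table. All 10 had a mean of at least 1 FPKM (a level of sequenced fragments corrected for gene length and for depth) over the 24 libraries and so were among the 12572 genes tested. The set was drawn up because Sdf2l1 was the ER gene that differed most between trained and untrained animals. The difference with training was therefore part of how these genes were chosen, and it is given below as values, without p-values for these genes. Counts of calls from it are printed beside the share of all tested genes, and nothing is read from them.

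Proteins unfolded in the ER lumen draw the chaperone encoded by Hspa5 (BiP) away from the stress sensors of the ER membrane, and the sensors start the unfolded protein response. A cleaved fragment of ATF6 and the spliced form of XBP1 then bind promoter elements of ER chaperone genes, while the sensor PERK slows translation and raises ATF4. Neurons and glia use the same pathway to match folding capacity to the load of newly made secretory protein.

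Bulk poly(A) RNA of the whole anterior cingulate cortex, a frontal cortical area, was sequenced from mice, with 1 library per animal. The 24 libraries fell into 3 arms of 8, each with 4 females and 4 males: untrained animals labelled WT, untrained animals labelled Thbs1/2 KO (knockout of both thrombospondin genes Thbs1 and Thbs2) and trained animals labelled Thbs1/2 KO. Trained animals worked in operant chambers and were food deprived from the start of training, and RNA was taken soon after behaviour, so training and food deprivation cannot be told apart. Strain and age are not given in the sources used here. None of the 24 libraries came from a trained animal labelled WT, so a difference with training under that label cannot be examined here.

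The genes named in the genotype label went against it. Thbs1 was 0.254 to 0.716 FPKM (median 0.518) in the 8 libraries labelled WT, 2.77 to 5.04 (median 3.51) in untrained animals labelled KO and 3.62 to 5.91 (median 4.45) in the trained ones. Thbs2 was 1.52 to 2.31 FPKM (median 2.10), 2.82 to 3.95 (median 3.60) and 2.95 to 3.63 (median 3.33) in the same order. Both genes were higher in every library labelled KO than in any library labelled WT, so genotype is given here only as the label, and each direction between labels rests on it. Depth, recovered from the table as whole reads per gene, ran from 12898226 to 19991770 reads per WT-labelled library, from 12343773 to 27233267 per untrained one labelled KO and from 16796512 to 20414047 per trained one. The deepest library, untrained labelled KO male 3, stood apart in its tissue markers. In it 6 cortical marker genes summed to 38.8 FPKM, against 137 to 167 across all WT-labelled and trained libraries. Its 7 striatal markers summed to 643 FPKM, against an arm median of 92.7. Striatal sums also reached 342 FPKM in a WT-labelled library and 256 in a trained one, against arm medians of 117 and 113. The main results that use untrained labelled KO male 3 are also given without it. Animal numbers in the labels also split the animals: all 8 trained animals had numbers over 1000, as did 3 untrained males, 2 labelled KO and 1 labelled WT, whereas the other 13 animals had numbers under 1000.

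Promoter sequence is shown first because the response acts through known short elements in promoters of ER chaperone genes. The 10 genes belong to that class, so nothing is read from their share with an element beside that of all promoters. RefSeq promoters (GRCm38.p6, 250 bases before to 50 after the annotated start) were found by symbol for 8 of the 10 genes, all but Hyou1 and Manf. The ER stress response element (ERSE), searched as CCAAT, any 9 bases and CCACG on both strands, was present in 5 of the 8: Hspa5, Calr, Hsp90b1, Pdia6 and Creld2. Among all 32851 promoters in the table, 39 held it, or 0.119%. Capitals mark the element in the sequences below, which run 5′ to 3′ on the strand of the gene.
Hspa5, chr2:34772005-34772063, plus strand, element 65 to 47 bases before the start: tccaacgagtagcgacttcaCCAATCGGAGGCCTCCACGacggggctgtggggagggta
Pdia6, chr12:17266471-17266529, plus strand, element 98 to 80 bases before the start: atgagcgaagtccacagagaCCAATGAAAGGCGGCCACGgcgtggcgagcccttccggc
Hsp90b1, chr10:86705618-86705676, minus strand, element 212 to 194 bases before the start: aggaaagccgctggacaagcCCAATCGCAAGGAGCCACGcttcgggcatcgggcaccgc
Hsp90b1, chr10:86705513-86705571, minus strand, element in the opposite direction, 107 to 89 bases before the start: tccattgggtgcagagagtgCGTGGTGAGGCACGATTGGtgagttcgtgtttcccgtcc
Calr, chr8:84847055-84847113, minus strand, element in the opposite direction, 162 to 144 bases before the start: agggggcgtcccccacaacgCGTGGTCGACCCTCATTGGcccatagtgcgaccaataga
Creld2, chr15:88819500-88819558, plus strand, element in the opposite direction, 126 to 108 bases before the start: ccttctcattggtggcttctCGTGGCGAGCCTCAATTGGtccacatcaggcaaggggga

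A second form of the element, ERSE-II, was searched as ATTGG, any 1 base and CCACG on both strands. Dnajb11 held it as ATTGGCCCACG at chr16:22857852-22857862, 7 to 17 bases after the start on the plus strand, against 0.0365% of all promoters. The core of the XBP1 and ATF6 site, searched as TGACGTG on both strands, was present in 1 of the 8, Hspa5, and in 2.01% of all promoters. It lies 157 to 151 bases before the start and is shown in capitals.
Hspa5, chr2:34771913-34771959, plus strand: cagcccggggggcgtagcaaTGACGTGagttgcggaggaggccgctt
These letters were not found in the windows of Pdia4 and Sdf2l1, although both, like all 8, held the shorter parts CCAAT (37.4% of all promoters) and CCACG (32.8%), which the longer elements contain. The elements were also looked up in genes outside the set. Of 10 other tested genes with an ERSE, 1 was called higher in trained animals, the co-chaperone gene Dnajc3, and of 7 others with an ERSE-II, 1 was called higher, Herpud1 of ER-associated degradation, where 3.5% of all tested genes were called higher. Of 314 others with the core of the XBP1 and ATF6 site, 9 were called higher and 9 lower, with a median log2 difference of 0.01. A match is a description of letters and was not tested as a binding site.

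In untrained animals the 10 genes covered a wide range of levels, and those levels did not pass a test between the genotype labels. On the FPKM scale, which is per length of gene, Calr, Hsp90b1 and Hspa5 were the most abundant, at 138 ± 11.5, 116 ± 11.5 and 89.9 ± 16 FPKM (mean ± SD, n = 16 untrained libraries). Pdia6 followed at 42.4 ± 5.42 and Hyou1 at 26.4 ± 2.75, and Pdia4, Manf and Dnajb11 lay close together at 15.7 ± 3.58, 13.4 ± 2.05 and 13.2 ± 0.931. Creld2, at 8.02 ± 1.41, and Sdf2l1, at 5.34 ± 1.47, were lowest. The means of Pdia4, Manf and Dnajb11 differed by less than the SD of Pdia4. The spread between untrained animals was widest for Sdf2l1 and Pdia4, with coefficients of variation of 27.5% and 22.8%, and narrowest for Dnajb11, at 7.07%. Counting error is part of the spread of Sdf2l1, for which a library held 56 to 156 reads when untrained. The Poisson error at the median read count of Sdf2l1 over all 24 libraries, trained ones included, is 9.74% of the value. It is 7.12% for Creld2 and under that for the other members.

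Untrained animals labelled KO and WT were compared with limma's moderated test on log2(FPKM + 1), with sex as a covariate and Benjamini-Hochberg adjustment over the 12572 tested genes. Of these, 179 passed an adjusted p of 0.05, or 1.42% (0.605% higher and 0.819% lower in animals labelled KO), and none of the 10 ER genes did. Their differences (labelled KO minus WT) ran from -0.04 to 0.07 on the log2 scale, with a median of 0.02 against -0.001 over all tested genes, and the smallest adjusted p among them was 0.753 by limma. At an unadjusted p under 0.05, 1600 of the tested genes passed. Sdf2l1 was 3.89 to 9.23 FPKM (median 4.66) in animals labelled WT and 3.39 to 7.12 (median 5.76) in those labelled KO, and the ranges overlapped along most of their length. Hspa5 was 71.0 to 126 FPKM (median 80.5) and 81.3 to 114 (median 86.1). For Hspa5 the 95% interval of the log2 difference was -0.13 to 0.27, and for Sdf2l1, the least precise, -0.26 to 0.33, so differences of that size are not excluded. Without untrained labelled KO male 3, 340 genes passed and again none of the 10, and Sdf2l1 stood at 0.11 (limma adjusted p = 0.733). In a test of whether the label difference itself differed between the sexes, the smallest adjusted p among the 10 was 0.98 by limma.

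All 10 ER genes were higher in trained than in untrained animals labelled KO. Log2 differences ran from 0.19 for Hsp90b1 to 0.98 for Sdf2l1, with a median of 0.59 against 0.007 over all tested genes. All 10 were called higher at an adjusted p of 0.05, where 3.5% of tested genes were called higher, 2.17% lower and 5.67% in either direction. Since this comparison chose the set, nothing is read from that count. In bulk tissue, a change in RNA per cell and a change in the number of cells that make it cannot be told apart. With animal number over 1000 added as a covariate, or with males over 1000 alone, all 10 differences stayed above 0 but no tested gene was called, as given below. Leaving out untrained labelled KO male 3 left the differences at 0.19 to 0.92.

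**Figure D1:**
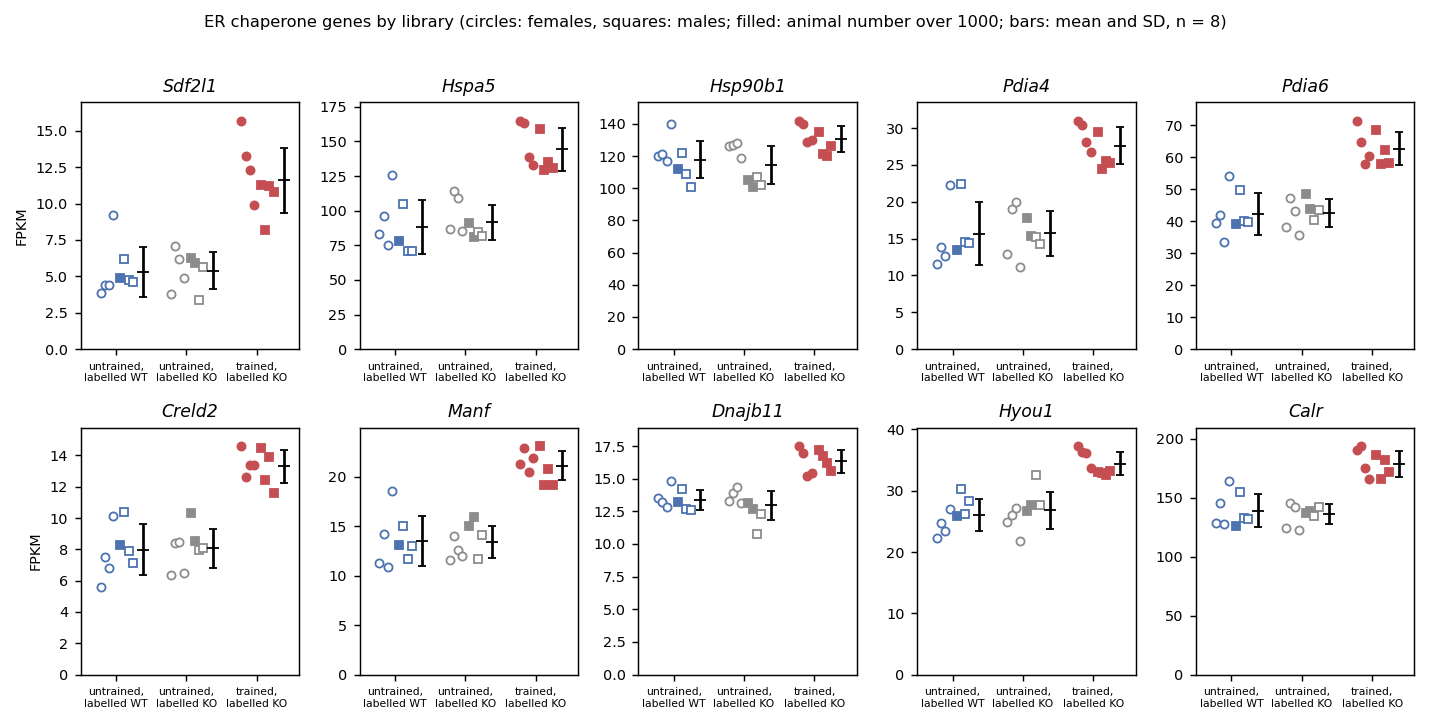
FPKM of the 10 ER genes (y axis of each panel, from 0) in the 24 libraries, by arm; circles are females, squares males, filled symbols animals numbered over 1000, and bars the mean and SD of 8 libraries. For Hspa5, Pdia4, Pdia6, Creld2, Manf, Dnajb11 and Calr every trained library lies above all 16 untrained ones, whereas for Sdf2l1 1 untrained female labelled WT, at 9.23 FPKM, reaches into the trained range.

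Hspa5 and the proteins that work with it came first by role. Hspa5 encodes BiP, the Hsp70 chaperone of the ER (chr2:34772090-34776529). Its trained libraries held 129 to 165 FPKM (median 137), and the untrained ones labelled KO 81.3 to 114 (median 86.1), so the lowest trained animal was above the highest untrained one, including the animal labelled WT at 126. The means stood at a ratio of 1.57 and the log2 difference was 0.65 (SE 0.071). Sdf2l1, at chr16:17130138-17132383, encodes an ER protein that joins BiP with its DnaJ partners and keeps clients from aggregating. It had 8.22 to 15.7 FPKM (median 11.2) in trained libraries against 3.39 to 7.12 (median 5.76) in untrained ones labelled KO. These ranges did not overlap, and the ratio of means was 2.15, with a log2 difference of 0.98 (SE 0.127). That difference ranked 2 from the highest among all tested genes. Sdf2l1 was picked on this difference, so nothing is read from the rank. The trained male at 8.22 FPKM was below the untrained WT-labelled female at 9.23, the only untrained library above that value.

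Dnajb11 (chr16:22857845-22879634) encodes a DnaJ co-chaperone that hands unfolded clients to BiP and stimulates its ATPase. Its libraries held 15.2 to 17.5 FPKM when trained and 10.8 to 14.4 when untrained and labelled KO, with 12.6 to 14.8 in those labelled WT, so all trained libraries were above all untrained ones. Its log2 difference, 0.31 (SE 0.0494), was less than that of Sdf2l1, its binding partner, but its coefficient of variation over untrained animals was the smallest of the set. Hyou1 (chr9:44379490-44392369) encodes a large Hsp70-like protein that exchanges nucleotide on BiP. It had 32.5 to 37.3 FPKM in trained libraries and 21.8 to 32.5 in untrained ones labelled KO. The ranges met at 32.5 FPKM because of 1 untrained animal, male 3, the library that stood apart in its markers, and the next highest untrained library labelled KO was at 27.7. The log2 difference of Hyou1 was 0.35 (SE 0.0613) with that library and 0.39 without it.

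Hsp90b1 and Calr were the most abundant members in untrained animals. Hsp90b1 (chr10:86690841-86705444) encodes GRP94, the Hsp90 of the ER, which folds a narrower set of clients such as integrins and Toll-like receptors. It had 120 to 142 FPKM (median 130) in trained libraries, 101 to 128 (median 113) in untrained ones labelled KO and 101 to 140 (median 119) in those labelled WT. All 3 ranges overlapped, and the log2 difference with training was 0.19 (SE 0.0423), the smallest of the set. Calr (chr8:84842088-84846931) encodes calreticulin, a lectin-like chaperone that holds newly made glycoproteins and binds calcium. It had 166 to 194 FPKM (median 178) in trained libraries against 123 to 146 (median 138) and 126 to 164 (median 132) in the untrained arms labelled KO and WT. No trained library fell into the untrained range, and its log2 difference was 0.40 (SE 0.0499).

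Pdia4 and Pdia6 encode protein disulphide isomerases, which make and rearrange disulphide bonds in folding proteins. Pdia4 (chr6:47796141-47813512) had 24.4 to 31.0 FPKM (median 27.4) in trained libraries, 11.1 to 20 (median 15.3) in untrained ones labelled KO and 11.5 to 22.4 (median 14.1) in those labelled WT. Its trained libraries were all above the untrained ones, with a ratio of means of 1.76 and a log2 difference of 0.79 (SE 0.098), next to Sdf2l1 in the set. Pdia6 (chr12:17266589-17284785) had 57.8 to 71.5 FPKM (median 61.4) when trained, against 35.6 to 48.7 (median 43.3) and 33.5 to 54.1 (median 39.9) in the untrained arms labelled KO and WT. Its log2 difference was 0.55 (SE 0.0653), again without overlap.

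Creld2 and Manf encode small ER proteins that are also secreted. Creld2 (chr15:88819646-88826681) is thought to act on disulphide bonds. It had 11.6 to 14.6 FPKM (median 13.4) in trained libraries, against 6.36 to 10.3 (median 8.24) and 5.58 to 10.4 (median 7.71) in the untrained arms labelled KO and WT. Manf (chr9:106888753-106891938) encodes a neurotrophic factor that binds BiP. It had 19.2 to 23.1 FPKM (median 21.1) in trained libraries, 11.6 to 15.9 (median 13.3) in untrained ones labelled KO and 10.9 to 18.6 (median 13) in those labelled WT. For both genes all trained libraries were above all untrained ones. Their log2 differences were 0.66 (SE 0.0757) for Creld2 and 0.63 (SE 0.0658) for Manf.

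Counted by overlap, 8 of the 10 genes had all 8 trained libraries above all 8 untrained ones labelled KO, where 0.668% of tested genes did, and the exceptions were Hsp90b1 and Hyou1. If untrained labelled KO male 3 was left out, 9 of the 10 did, all but Hsp90b1, where 0.819% of tested genes did. For 7 of the 10, all but these and Sdf2l1, the trained libraries were above all 16 untrained ones, where 0.334% of tested genes were. The mean log2(FPKM + 1) of the 10 genes was 5.24 to 5.53 in trained libraries and 4.63 to 5.17 in untrained ones, without overlap. These genes were chosen partly on the difference with training, so nothing is read from this separation or from the overlap counts. The highest untrained animals in the mean of the 10 genes were WT-labelled female 4, at 5.17, and WT-labelled male 2, at 5.04. Both are untrained, labelled WT and numbered under 1000. Against the untrained animals labelled WT, the trained animals labelled KO differed by 0.15 to 1.02 (median 0.60, against 0.003 over all tested genes). All 10 were called higher, where 12.9% of tested genes were, and 24.5% in either direction. That comparison shares its trained libraries with the one that chose the set, and the 2 labels differ as well as training.

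**Figure D2:**
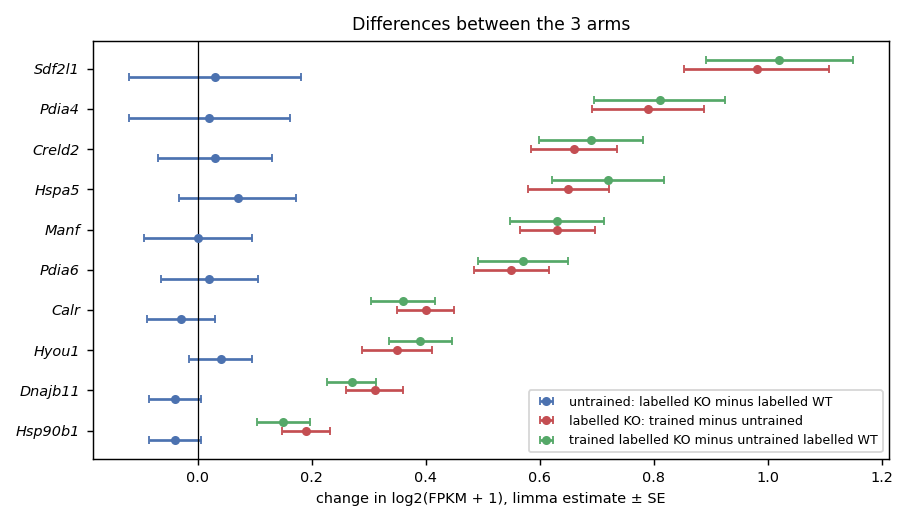
Difference in log2(FPKM + 1) between arms (x axis), as limma's estimate ± SE with sex as a covariate, for each ER gene (y axis, ordered by the difference with training). Blue points for the genotype label in untrained animals lie between -0.04 and 0.07, and red and green points, which share the trained libraries, lie between 0.15 and 1.02.

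The difference with training was above 0 in both sexes for all 10 genes. In females all 4 trained animals were above all 8 untrained females for 9 of the 10 genes, all but Hsp90b1, where 7.33% of tested genes were. The trained females entered the comparison that chose the set, so nothing is read from that count. Sdf2l1 differed by 1.10 in females and 0.87 in males on the log2 scale, Hspa5 by 0.61 and 0.70, and Pdia4 by 0.88 and 0.71. Hyou1 had the largest gap between the sexes, with 0.51 in females, from a mean of 25.0 to 35.9 FPKM, and 0.20 in males, from 28.7 to 33.0 FPKM. The difference in training effect (males minus females) was -0.31 for Hyou1 (SE 0.0977, unadjusted p = 0.00603, adjusted p = 0.158 by limma), so it did not pass. Hsp90b1 went the other way, at 0.11 in females and 0.27 in males, with a difference of 0.16 (limma adjusted p = 0.308). No member passed this test, and 1 of the 12572 tested genes did (0.00795%). Without untrained labelled KO male 3, the male difference was 0.26 for Hyou1 and 0.71 for Sdf2l1. The difference between the sexes was then -0.25 for Hyou1 (limma adjusted p = 0.134), and the smallest adjusted p among the 10 was 0.117, for Manf.

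Animal number and training overlap in these labels, so the 3 untrained males numbered over 1000 were set beside the 4 trained males, who were all numbered over 1000. Sdf2l1 was 6.28 and 5.89 FPKM in the 2 such males labelled KO and 4.87 in the 1 labelled WT, against 11.3, 8.22, 11.2 and 10.8 in the 4 trained males. Hspa5 was 91.0, 81.3 and 77.8 FPKM in the same untrained males and 159, 129, 135 and 131 in the trained ones. Pdia4 was 17.8, 15.4 and 13.5 FPKM and then 29.5, 24.4, 25.5 and 25.3. In each of these genes the trained males were above the untrained males of the same range of numbers. The same held for all 10 genes, where it held for 7.52% of tested genes. All of these males but the 1 labelled WT entered the comparison that chose the set, so nothing is read from that count. Ratios of mean FPKM within this range of numbers were 1.83 for Sdf2l1, 1.68 for Pdia4, 1.66 for Hspa5, 1.45 for Creld2, 1.41 for Pdia6 and 1.40 for Manf. They were 1.32 for Calr, 1.26 for Dnajb11, 1.23 for Hyou1 and 1.19 for Hsp90b1.

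**Figure D3:**
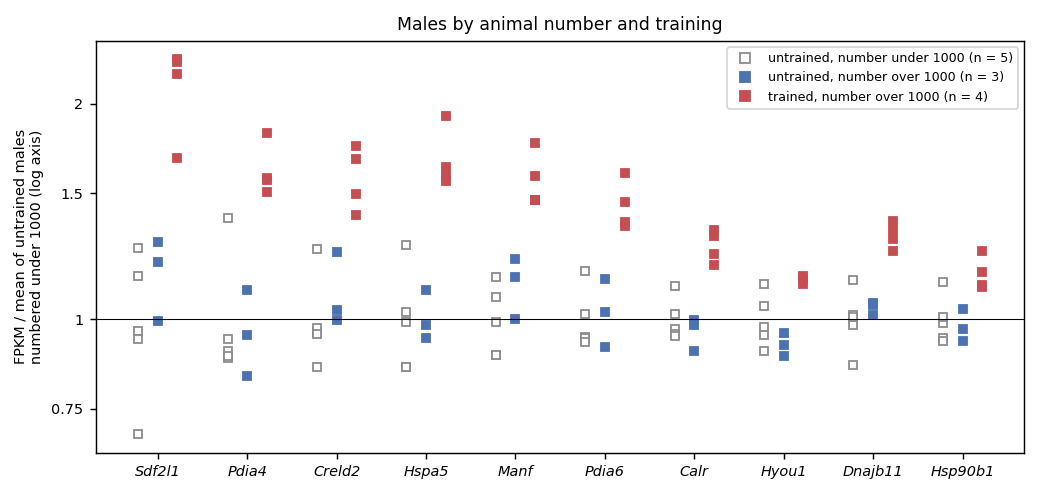
FPKM of each ER gene in the 12 males, divided by the mean of the 5 untrained males numbered under 1000 (y axis, log scale). Blue squares, the 3 untrained males over 1000, lie all below 1 for Hyou1 and Calr and all above 1 for Dnajb11. For most other genes they fall on both sides of 1. All 4 trained males (red) lie above the blue squares for each of the 10 genes.

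Within the animals labelled KO, adding animal number as a covariate gave log2 differences with training of 0.68 (SE 0.197) for Sdf2l1 and 0.65 (SE 0.122) for Hspa5, against 0.98 and 0.65 without it. Pdia4 stood at 0.65 (SE 0.163), Manf at 0.41 (SE 0.0901) and Hsp90b1 at 0.25 (SE 0.0698). That fit called 0 of the 12572 genes, and so none of the 10, with 1306 genes at an unadjusted p under 0.05. In males over 1000 labelled KO alone, 4 trained against 2 untrained, the differences were 0.27 to 0.68, again with 0 genes called and 1320 at an unadjusted p under 0.05. With the covariate but without untrained labelled KO male 3, the differences were 0.26 to 0.72, with 0 genes called and 1769 at an unadjusted p under 0.05. All trained animals were numbered over 1000, and all untrained females under it.

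Number was then compared without training, in the 8 untrained males, with the genotype label as a covariate. No tested gene passed (0.0%), and 718 had an unadjusted p under 0.05 by limma, while array weights gave 2 calls. The 10 ER genes differed by -0.13 for Hyou1 to 0.20 for Sdf2l1 (over minus under 1000), with a median of 0.01 against 0.011 over all tested genes. The smallest adjusted p among them was 0.761 by limma. For single genes, an exact permutation test of the 3 males against the 5 was run, 2-sided and without the genotype label as a covariate. Its permutation p ran from 0.179 for Manf and Hyou1 to 0.929 for Hspa5 and Pdia4. For Sdf2l1 the 95% interval of the difference by limma was -0.13 to 0.53, so differences within these bounds are not excluded. Without untrained labelled KO male 3, which has a number under 1000, the difference of Sdf2l1 was 0.013 and the smallest adjusted p among the 10 was 0.954 by limma.

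Between the sexes 1 of the 10 genes passed, with arm as a covariate over all 24 libraries. Hsp90b1 was lower in males by limma, with a log2 difference (male minus female) of -0.18 (SE 0.0367, adjusted p = 0.00122), where 13.8% of tested genes were called lower in males and 28.6% in either direction. Its means were 125 FPKM in females and 111 in males among untrained animals labelled WT, 125 and 104 among untrained ones labelled KO, and 135 and 126 among trained ones, so females were higher in all 3 arms. Untrained animals labelled KO were at 119 to 128 FPKM in females and 101 to 107 in males. The sexes overlapped in the other arms, at 117 to 140 and 101 to 122 FPKM among those labelled WT and at 129 to 142 and 120 to 135 among trained ones. Without untrained labelled KO male 3 the difference of Hsp90b1 was again -0.18 (limma adjusted p = 0.00116). After correction for GC content and length the difference was -0.08 and no member passed, while the count of genes called fell from 3595 to 742. Hspa5 had the same estimate, -0.18, with more spread (SE 0.077, limma adjusted p = 0.0811), and it passed when libraries were scaled to an equal sum (-0.23, limma adjusted p = 0.0333) or quantile normalized (-0.24, limma adjusted p = 0.0363). The other 8 differed by -0.11 to 0.11, and none passed. Under other settings Dnajb11 passed with an equal sum (-0.10, limma adjusted p = 0.0416) and Hyou1 in the 13 animals numbered under 1000 (0.23, limma adjusted p = 0.0227).

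Animals of the same arm and sex also differed from one another in these genes, and the 10 genes varied together among them. For each gene the mean of its arm-by-sex group was subtracted from log2(FPKM + 1), which removes training, label and sex, and all 45 pairs were correlated over the 24 libraries, with libraries permuted within groups. Pearson's r was above 0 in 45 of 45 pairs, from 0.19 to 0.94 with a median of 0.77. The median r between a member and all other tested genes was 0.0 when rounded. The 95th percentile of r over all tested genes ran from 0.49 for Calr to 0.57 for Pdia4. By permutation test, 2-sided with Benjamini-Hochberg adjustment over the 45 pairs, 41 passed by r and 40 by Spearman's rho. How many pairs of a member with another tested gene would pass was not counted, so nothing is read from these counts. Leaving out the 2 libraries farthest from the median of the first gene gave r from 0.11 to 0.90, with a median of 0.66. With means also removed by range of animal number 42 pairs passed, and without untrained labelled KO male 3 all 45 did, with a median r of 0.81.

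**Figure D4:**
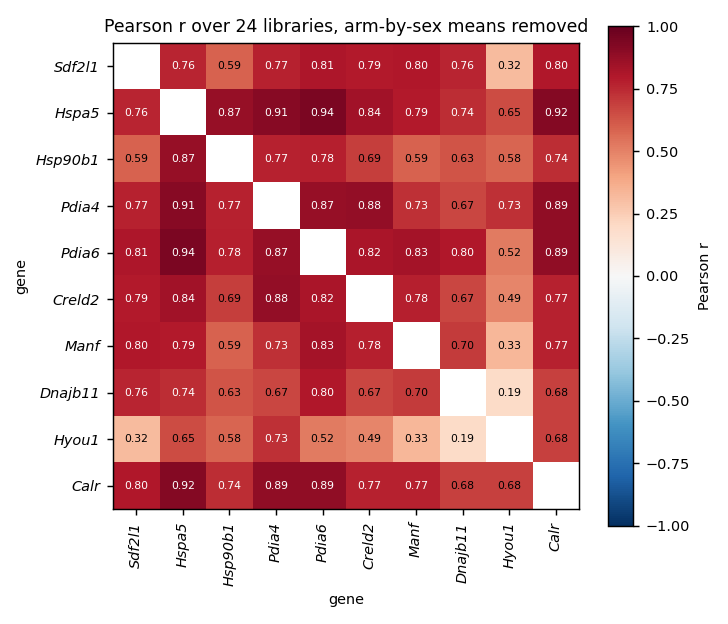
Pearson r between each pair of the 10 ER genes over 24 libraries, after removal of arm-by-sex means from log2(FPKM + 1); both axes list the genes and the color scale runs from -1 to 1. Every pair is above 0, the block of Hspa5, Pdia4, Pdia6 and Calr reaches 0.87 to 0.94, and the palest cells are in the row of Hyou1, down to 0.19.

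Hspa5 and Pdia6 were the closest pair, with r = 0.94 (permutation p = 3e-05, adjusted p = 0.00045) and rho = 0.84 (permutation p = 0.0001, adjusted p = 0.000562), and r was 0.90 without the 2 farthest libraries. Hspa5 and Calr followed at r = 0.92 (permutation p = 8e-05, adjusted p = 0.00045) and rho = 0.88 (permutation p = 0.00015, adjusted p = 0.000614), with r = 0.87 without the 2 farthest. Hspa5 had the highest median r with the other members, 0.84, and Hyou1 the lowest, 0.52. All 4 pairs that did not pass by r involved Hyou1: with Dnajb11 r was 0.19 (permutation p = 0.441, adjusted p = 0.441), with Sdf2l1 0.32, with Manf 0.33 and with Creld2 0.49. With all libraries but untrained labelled KO male 3, in which Hyou1 was high and Dnajb11 low for their arm, these 4 pairs passed too. All genes of a pair share their library, depth and dissection, and the part of each in these correlations was not tested.

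Among the 12562 tested genes outside the set, 61 (0.486%) had an r of at least 0.77 with the mean of the 10 standardised genes. The same 24 libraries were used. The cut of 0.77 is the median of pairs of single genes, which is an unlike measure to r with a mean of 10 genes. The 5 closest were Kbtbd2, Papola and Srsf10 at r = 0.88 and Ncoa5 and Galnt7 at 0.87. Of these, Ncoa5 was called higher in trained animals labelled KO, by 0.26, and the other 4 differed by 0.10 to 0.18 and were not called. In the pathway lists, the closest were Pdia3 and Chordc1, each at r = 0.84, and Xbp1 at 0.78. Genes regulated through PERK and ATF4 lay between -0.61 and 0.19, with a median of -0.12. Among markers of cell types, microglial ones lay between -0.84 and 0.36 (median -0.36) and astrocyte ones between -0.49 and -0.02 (median -0.30). Medians of the other marker lists lay between -0.18, for meningeal fibroblasts, and 0.19, for striatum. The part of cell composition in these values was not tested. These correlations are a description over libraries that share depth and preparation.

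The other genes of the response were counted in lists of pathway members, tested by limma over all 12572 genes. With training, 3.5% of all tested genes were called higher and 2.17% lower. Between trained and untrained animals labelled KO, 2 of 11 sensors and transcription factors were called higher and none lower. Xbp1, which encodes the factor made active by splicing, rose by 0.52 (SE 0.0689, limma adjusted p = 0.000658), from 27.7 to 41.4 FPKM in untrained to 47.2 to 54.3 in trained libraries, without overlap. Atf4 rose by 0.22 (limma adjusted p = 0.0232), but its trained mean of 68.7 FPKM was near the 66.6 of untrained animals labelled WT. The sensor genes Ern1 and Eif2ak3 were at -0.14 and -0.03, and Atf6 at 0.24, none of which passed. The median of the list was 0.06 against 0.007 over all tested genes.

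Of 28 other ER folding factors, 2 were called higher and none lower, with a median of 0.11. Dnajc3, which encodes a BiP co-chaperone that also restrains PERK, rose by 0.35 (limma adjusted p = 0.00396), and Pdia3, the disulphide isomerase that works with calreticulin on glycoproteins, by 0.30 (limma adjusted p = 0.00186). P4hb, another disulphide isomerase (0.08), Canx, the membrane-bound relative of calreticulin (-0.05), and Dnajb9, another DnaJ partner of BiP (0.09), did not pass. Of 18 genes of ER-associated degradation, which returns misfolded proteins to the cytosol, Herpud1 rose by 0.30 (limma adjusted p = 0.00728), from a mean of 33.6 to 41.5 FPKM, and Erlec1 fell by 0.24 (limma adjusted p = 0.0304), from 16 to 13.3 FPKM, and the list's median was 0.03. Of 16 genes of the translocon and signal peptide processing, through which proteins enter the ER, Sec62 (0.18), Srprb (0.24) and Sec61a1 (0.15) were called higher. None was called lower, and the median was 0.10. Means of Sec62 were 44.0 FPKM in untrained animals labelled WT, 40.8 in untrained ones labelled KO and 46.5 in trained ones. Those of Sec61a1 were 22.7, 21.8 and 24.3 in the same order. Against untrained animals labelled WT, 7 of the 16 were called higher, where 12.9% of tested genes were. Srprb was among them, but Sec62 and Sec61a1 were not.

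Of 16 targets of PERK and ATF4, 1 was called higher and none lower, with a median of 0.02. It was Ddit3, which encodes the transcription factor CHOP, at 15.2 to 22.7 FPKM in untrained and 23.2 to 29.9 in trained libraries labelled KO, a log2 difference of 0.35 (SE 0.0668, limma adjusted p = 0.0077). Ddit4 differed by -0.42 and was not called. Against untrained animals labelled WT, 1 gene of this list was called higher in trained animals, Ddit3 (0.52), where 12.9% of tested genes were. In that comparison 3 were called lower, Ddit4 (-0.59), Slc7a5 (-0.25) and Cars (-0.20), where 11.5% of tested genes were. The cytosolic heat shock chaperones, which belong to a separate stress response, had 9 of 15 higher and none lower, with a median of 0.30. Dnajb1, an Hsp70 co-chaperone, rose by 0.48, the Hsp110 gene Hsph1 by 0.45 and Hspa1b, an inducible Hsp70, by 0.74, with limma adjusted p of 0.000215, 0.000292 and 0.000674. Hspa1b is nearly identical to Hspa1a, so reads could be split between them, and its mean was only 0.963 FPKM in untrained and 2.30 in trained libraries. Over the 6 lists, 19 of 104 tested genes were called, or 18.3%, where 5.67% of all tested genes were called in either direction. These lists were drawn up with earlier results of these data known, so nothing is read from that count. The count was 22 without untrained labelled KO male 3, where 852 of the 12572 tested genes were called. Without that library Xbp1 was at 0.47, Ddit3 at 0.36 and Hspa1b at 0.78, Sec61a1 no longer passed (0.15, limma adjusted p = 0.0515), and the median of the heat shock list was 0.33. As for the 10 genes, no gene of these lists was called once animal number was a covariate, since no tested gene was.

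**Figure D5:**
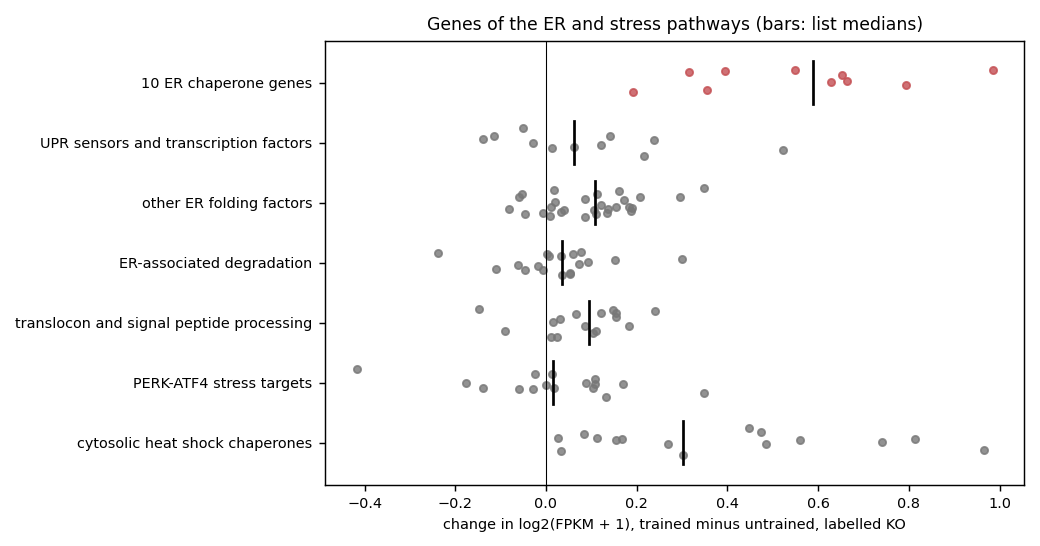
Difference with training in log2(FPKM + 1) among animals labelled KO (x axis) for each tested gene of 7 lists (rows); black bars are list medians. The 10 ER genes, chosen on this comparison, have a median of 0.59 and the cytosolic heat shock chaperones 0.30, while the medians of the other lists lie between 0.02 and 0.11.

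Between untrained animals labelled KO and WT, 2 of the 104 tested genes of these lists were called, or 1.92%, near the 1.42% of all tested genes. Cars, a tRNA synthetase gene regulated by ATF4, was lower in those labelled KO by limma (-0.22, adjusted p = 0.0332), and so was Cryab, a small heat shock protein (-0.77, adjusted p = 0.0061). Cryab then stood at a mean of 52.3 FPKM in trained animals labelled KO, against 28.6 in untrained ones with that label and 50.1 in animals labelled WT. Xbp1 differed by 0.07 between the labels and Herpud1 by 0.06, like the 10 ER genes without passing.

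Markers of cell types were looked at beside these results, since the tissue was not sorted. Between trained and untrained animals labelled KO, none of 7 neuronal, 7 astrocyte, 7 oligodendrocyte or 7 microglial markers was called, and 1 of 6 endothelial markers was, Ly6c1, which rose by 0.49 (limma adjusted p = 0.00763). All 7 oligodendrocyte markers were above 0, with a median of 0.25, and their summed level was 669 to 1240 FPKM in untrained libraries labelled KO, 1000 to 1680 in trained ones and 949 to 1510 in those labelled WT. Once untrained labelled KO male 3 was left out, that median was 0.15 and 1 oligodendrocyte marker, Ermn, was called (0.33, limma adjusted p = 0.0429). Astrocyte markers were below 0 for all but 1 of 7, with a median of -0.16 and summed levels of 607 to 797, 523 to 725 and 609 to 726 FPKM in the same order. Summed neuronal markers were 2220 to 3750 FPKM in untrained libraries labelled KO, the lowest being male 3, and 2960 to 3520 in trained ones. Markers of the choroid plexus and ependyma summed to 87.1 FPKM in 1 trained library and to a median of 7.43 in that arm. The summed ranges overlapped between arms for each of these lists, and their part in the differences of the ER genes was not tested.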

How the data were processed

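Poly(A) RNA of 24 mice was made into stranded mRNA libraries, per the labels' protocols. The authors deposited 1 table of FPKM values per gene and library. Tools named in the submitters' processing notes are FastQC 0.11.7, Trimmomatic 0.38, STAR 2.5.3a and featureCounts of Subread 1.6.3, with mm10 as the build. The annotation and the strand setting of the counting are not given in the sources used here, so reads of genes that overlap cannot be told apart. Each column carries an animal number that the labels give to 1 sample, so replicates are separate animals.

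Within a gene, FPKM values step by the value of a single read. From these steps whole reads were recovered for 15232 of 15232 genes, within 0.01 read for all but 22 and 0.1 read for those. They give the depth and cover counting error only.

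Differences were fitted on log2(FPKM + 1), which understates the change of low genes, using limma 3.58.1 (R 4.3.3; lmFit and trended eBayes). The 12572 genes that averaged 1 FPKM or more were tested, and p-values were adjusted by Benjamini-Hochberg over them and called under 0.05. A fit held the arms it compared and sex, and the sex fit held all libraries and arm. The fit and the recovery of reads were tested on simulated data. Pairs of genes were permuted within arm-by-sex groups (100000 resamples, smallest possible p 1e-05). Python 3.11.15, numpy 2.4.6, pandas 2.3.3, scipy 1.17.1 and matplotlib 3.10.9 were used. Promoters and gene positions come from RefSeq GRCm38.p6, and GC content from GENCODE transcripts for 96.4% of tested genes.

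The 10 members and the pathway and marker lists were chosen with earlier results of these data known. All members were fitted in each comparison, but in some only part of them are named, with no rule fixed beforehand for which. From the other lists, called genes are counted and up to 3 with the smallest p are named, and further genes given with values were chosen after these were seen. The 5 genes closest to the members by r are named, and Thbs1 and Thbs2 as the check of the labels. Alternatives changed the pseudocount (0.1), the filter (none, or 5 FPKM), the scaling, the trend, array weights, the samples in a fit and the covariates (no sex, a replicate block, animal number split at 1000). Others used limma-voom on recovered reads, a correction for GC content and gene length in 20 bins, or left out each library in turn. The GC correction of the pairs, and the fits by sex, of the lists and with the number covariate without untrained labelled KO male 3, were added after seeing the data.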

Additional observations from a re-analysis of the deposited data

Results flagged for a closer look

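In each arm of 8 libraries the highest and lowest value of each of the 10 ER genes was compared with its nearest neighbour by Dixon's criterion, which marks about 1 in 20 groups by chance, or 1.5 of the 30 groups checked. It marked 1. Sdf2l1 was 9.23 FPKM in untrained WT-labelled female 4, and the gap to the next WT-labelled library, at 6.16, was 0.573 of the range of that arm. The recovered reads behind that value numbered 156. The same animal was the highest of its arm in 7 of the 10 genes, which beside Sdf2l1 were Hspa5 (126 FPKM), Hsp90b1 (140 FPKM), Pdia6 (54.1 FPKM), Manf (18.6 FPKM), Dnajb11 (14.8 FPKM) and Calr (164 FPKM), and it had the highest mean of the 10 genes among untrained animals, at 5.17.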

How the results depend on the processing

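The 10 differences with training were above 0 under each alternative run. The median r of the pairs was 0.76 to 0.81 under theirs, with 41 to 45 pairs passing. With animal number over 1000 as a covariate, also without untrained labelled KO male 3, or only males over 1000, the genes called with training went from 713 to 0 and members from 10 to 0. The covariate left 22 genes and 0 members for trained labelled KO against untrained WT. Array weights gave 2020 genes with training, 1 fit of all libraries 1238 and no sex covariate 422. For the label in untrained animals these counts were 297 with array weights and 98 without the sex covariate, against 179. Scaling to an equal sum moved the split of calls with training from 440 higher and 273 lower to 235 and 385, limma-voom to 367 and 375. An equal sum also moved the split for trained labelled KO against WT from 1626 and 1448 to 1095 and 2112, and for sex from 1857 and 1738 to 972 and 2600. For sex, members called numbered 3 with an equal sum, 2 with quantile normalization, 2 in the 13 animals under 1000 and 0 after GC correction, which left 742 genes. Array weights gave 2 genes by number in untrained males. The cause of these shifts was not tested.

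Same-numbered animals are different animals, and their deviations correlated from -0.295 to 0.361, so the numbers do not pair them. The trained female without a number in its label and the untrained female with the same replicate number were left out of the block fits with trained animals. With the replicate block, 114 genes were called for the label and 0 members, 29 and 7 with training, and 1614 and 10 for trained labelled KO against WT. The same libraries without the block gave 248 genes and 10 members with training and 2501 and 10 against WT, a comparison added after seeing the data.

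Leaving out 1 library gave 115 to 340 genes for the label, 330 to 945 with training (members 10), 2363 to 3418 for trained labelled KO against WT (members 9 to 10) and 2986 to 4233 for sex (members 1 to 2). For the label, 115 came without WT-labelled female 3 and 340 without untrained labelled KO male 3. With training, fewer than 475 came without trained female 1 (332), 2 (408) or 4 (433), or untrained labelled KO female 1 (330) or 4 (472).

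Differences near 0 changed sign. For the label, Manf was -0.0039 with an equal sum, -0.0029 with quantile normalization, -0.0021 with limma-voom and -0.018 with the number covariate, and Sdf2l1 -0.02 with limma-voom. For sex, Pdia4 was -0.0094 with median-ratio scaling, -0.046 with an equal sum, -0.008 with quantile normalization, -0.017 with limma-voom and -0.0022 with the number covariate. Pdia6 was -0.023 with an equal sum, -0.005 with quantile normalization and -0.0087 after GC correction. Manf was -0.027, -0.0011 and -0.051 with an equal sum, limma-voom and GC correction and -0.026 with the number covariate, Creld2 -0.029 after GC correction and Calr 0.018 in animals under 1000. By number in untrained males, Hspa5 was -0.0031 with median-ratio scaling, -0.018 with an equal sum, -0.021 with quantile normalization, -0.0051 with array weights and -0.0071 with limma-voom. Hsp90b1 was 0.028 with array weights and 0.0062 after GC correction, and Pdia6 -0.058 with array weights. Leaving out 1 library, for the label Sdf2l1 was -0.02 to 0.15, Pdia4 -0.039 to 0.11, Pdia6 -0.025 to 0.079, Creld2 -0.024 to 0.093, Manf -0.034 to 0.077 and Calr -0.051 to 0.0068. For sex Pdia4 was -0.053 to 0.052, Pdia6 -0.0045 to 0.063, Manf -0.0068 to 0.065 and Calr -0.028 to 0.012. Without untrained labelled KO male 3, the label difference in males minus that in females was 0.15 for Sdf2l1 and -0.045 for Hyou1. By number Hspa5 was -0.046 to 0.081, Hsp90b1 -0.029 to 0.025, Pdia4 -0.13 to 0.16 and Pdia6 -0.042 to 0.14.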
